A study of Mus musculus with 12 samples.

Results

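The genes described here bind actin monomers or control how fast monomers enter and leave filaments. They are the thymosins *Tmsb4x* and *Tmsb10*, the profilins *Pfn1* and *Pfn2*, the cofilins *Cfl1* and *Cfl2* with the related destrin gene *Dstn*, the gelsolin gene *Gsn*, and the cyclase-associated protein gene *Cap1*. They were taken by gene name, 9 of the 23022 genes listed, and all 9 were among the 11663 genes tested. The set was selected on the *Tmsb4x* values, which were much lower in DKO than in NTC libraries, so its difference between genotypes is given as a description, without a test. The other 8 members were added by name, with earlier results of these data known.

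RNA-seq was performed on B16-F10, a mouse melanoma cell line, in 12 libraries from 4 groups with 3 replicates each. All cells carried Cas9, and by the study's methods the guides were delivered to a Cas9 clone picked for its editing rate. The populations carrying the lentiviral paired-guide construct were polyclonal. NTC cells carried the control guides (the labels write no template control and the study a non-targeting control), and DKO cells carried guides against both *Mbnl1* and *Mbnl2*. Each genotype was left untreated or stimulated with IFNγ. Because the DKO population is polyclonal, it can mix edited and unedited alleles. The study reports that protein was not completely absent on western blots of its polyclonal cells. It also reports that DNA sequencing found indels in most alleles, in its account of the single knockouts and before it introduces the DKO cells. The labels do not say whether replicates are separate cultures, so p-values measure only the spread between these libraries. *Mbnl1* ranged from 55.6 to 63.9 TPM in the NTC libraries and from 41.1 to 47.5 TPM in the DKO libraries, and *Mbnl2* from 99.2 to 107.1 TPM and from 83.9 to 98.0 TPM. Melanocyte markers were abundant in every library. Their summed level was 16647 to 18643 TPM in NTC and 11124 to 12414 TPM in DKO libraries. Of 11 listed markers of immune, endothelial, fibroblast and epithelial cells, *Ptprc*, *Cd3e*, *Cdh5*, *Dcn*, *Krt5* and *Epcam* were at 0 in all libraries, and the whole list summed to 2.24 to 8.18 TPM.

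Actin exists as free monomers and as filaments, and most non-muscle cells keep a large monomer pool ready for fast growth of protrusions. Thymosins hold monomers in a complex that cannot join a filament, while profilins exchange the nucleotide of the monomer and deliver it to growing ends. Cofilins and destrin sever old filaments and release monomers, gelsolin severs and caps filaments in response to calcium, and CAP1 recycles cofilin-bound monomers. Free monomers also hold back the MRTF coactivators of SRF, a transcription factor whose targets include actins and many of the proteins that bind them.

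Both thymosins are encoded by short reading frames, printed here because they differ at many positions and are measured as separate genes. In GENCODE M21 (GRCm38), *Tmsb4x* lies at chrX:167207093-167209315 and *Tmsb10* at chr6:72957347-72958748, both on the minus strand. Each frame holds 132 bases (44 codons) without its stop codon, and the frames are identical at 92 bases (69.7%). Capitals mark the 40 bases that differ, 5′ to 3′.
Tmsb4x: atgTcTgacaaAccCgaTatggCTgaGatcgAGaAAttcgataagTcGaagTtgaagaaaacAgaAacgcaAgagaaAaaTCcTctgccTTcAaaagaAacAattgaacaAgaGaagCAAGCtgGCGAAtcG
Tmsb10: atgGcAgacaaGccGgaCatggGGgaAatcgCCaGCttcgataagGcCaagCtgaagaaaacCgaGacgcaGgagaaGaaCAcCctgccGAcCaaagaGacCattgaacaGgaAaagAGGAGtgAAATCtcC
The longest stretch without a difference is 10 bases, so no stretch of read length is shared in the coding part. Over the annotated protein-coding transcripts, none of the 50-base stretches of *Tmsb4x* occurs in another gene. Of those of *Tmsb10*, 27.0% occur in other annotated genes, mostly *Gm9844* (21.6%), for which no value was listed. Reads of these genes could have been shared out in the counting.

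*Tmsb4x* had the lowest mean of the 9 members in every group, overlapping with *Pfn2* in treated NTC cells, and was lower still in DKO cells. It stood at 23.7, 26.6 and 27.4 TPM in the untreated NTC group and at 25.9, 30.5 and 37.3 TPM in NTC libraries with IFNγ. In DKO libraries it stood at 5.83, 4.31 and 5.15 TPM untreated and at 5.66, 5.53 and 4.79 TPM with IFNγ. No DKO library reached the lowest NTC library, while treated and untreated libraries overlapped within each genotype. The means were 25.9 ± 1.92, 31.2 ± 5.72, 5.10 ± 0.761 and 5.33 ± 0.469 TPM (SD, n = 3) in the same order of groups. DKO minus NTC was −2.15 on the log2(TPM + 1) scale without IFNγ (SE 0.121) and −2.34 with it, the third lowest value among the 11663 tested genes in both comparisons. Adding 1 TPM understates the change of a gene at this level, and the DKO mean was 0.197 of the NTC mean without IFNγ and 0.171 with it. In bulk RNA, fewer cells that express a gene and less RNA per cell cannot be told apart.

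*Tmsb10* moved the other way. It stood at 990.3, 959 and 1018 TPM in the untreated NTC group and at 1202, 1231 and 1131 TPM with IFNγ. The DKO libraries held 2127, 2301 and 2291 TPM untreated and 2517, 2357 and 2482 TPM with IFNγ. All 6 DKO libraries were above all 6 NTC libraries, and treated libraries were above untreated ones in both genotypes. The DKO mean of 2239 ± 97.8 TPM was 2.26 times the NTC mean of 989 ± 29.9 TPM without IFNγ (SD, n = 3). With IFNγ, 2452 ± 84.3 TPM in DKO was 2.06 times the 1188 ± 51.7 TPM in NTC. In limma, *Tmsb10* was higher in DKO by 1.18 (log2, SE 0.0447, adjusted p = 1.16e-09) without IFNγ and by 1.05 (adjusted p = 4.96e-09) with it. These were the 27th and the 64th highest differences among all tested genes, and both calls held under all 21 alternatives. *Tmsb10* went from place 128 to place 32 among all listed genes ordered by TPM, comparing untreated NTC with untreated DKO cells.

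**Figure D1:**
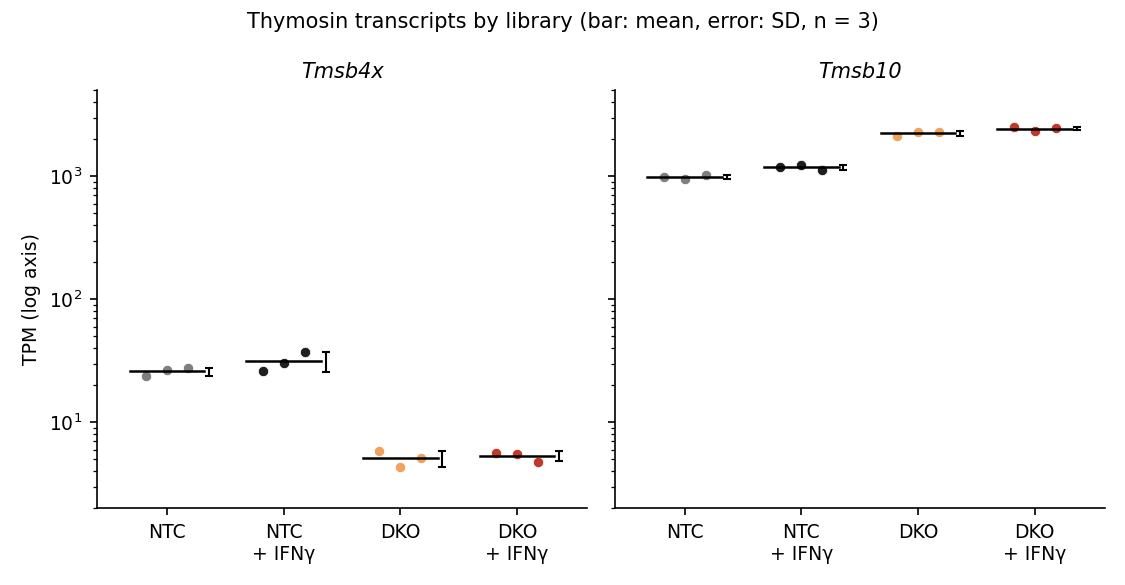
TPM (log axis) of *Tmsb4x* (left) and *Tmsb10* (right) in each library, with the mean (bar) and SD (n = 3) of NTC and DKO groups with and without IFNγ. *Tmsb4x* lies between 23.7 and 37.3 TPM in NTC and between 4.31 and 5.83 TPM in DKO libraries, while *Tmsb10* lies at 959 to 1231 TPM in NTC and at 2127 to 2517 TPM in DKO libraries.

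Since *Tmsb4x* made up a small share of thymosin transcripts, the sum of both followed *Tmsb10*. The sum was 1015 ± 30.3 TPM in untreated NTC, 1219 ± 47.4 TPM in treated NTC, 2245 ± 97.2 TPM in untreated DKO and 2457 ± 84.2 TPM in treated DKO libraries (SD, n = 3). The share of *Tmsb4x* in that sum was 2.55% and 2.57% in the NTC groups and 0.228% and 0.217% in the DKO groups. Measured against β- and γ-actin transcripts together (*Actb* and *Actg1*), *Tmsb10* went from 0.311 ± 0.0187 per actin transcript in untreated NTC to 0.835 ± 0.0654 in untreated DKO cells (SD, n = 3). With IFNγ, the ratio was 0.381 ± 0.0178 in NTC and 0.862 ± 0.0667 in DKO cells, and the NTC and DKO ranges did not overlap in either condition. These sums and ratios use the values that led to the choice of genes and are given without a test.

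Among the 8 members other than *Tmsb4x*, 5 passed an adjusted p of 0.05 in DKO against NTC without IFNγ, 3 of them higher (*Tmsb10*, *Pfn2*, *Gsn*) and 2 lower (*Cfl1*, *Cfl2*). With IFNγ, 7 of 8 passed, 4 higher (with *Pfn1*) and 3 lower (with *Dstn*). Many genes differed between the genotypes: 36.4% of all tested genes passed without IFNγ (17% higher, 19.4% lower) and 43.3% with it (19.5% higher, 23.9% lower). Because the set was chosen with this contrast known, nothing is read from the share of members that passed. The median log2 difference of the 8 members was 0.11 without and 0.15 with IFNγ, against −0.01 over all tested genes in each. The comparisons share libraries: untreated NTC cells also enter the IFNγ response of NTC cells. The scale also matters for the split. When libraries were scaled to the same total, 60.7% of the calls over all genes were higher in DKO without IFNγ and 65.3% with it, in place of 46.7% and 44.9%, and the members split 5 higher to 1 lower without and 5 to 2 with IFNγ.

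**Figure D2:**
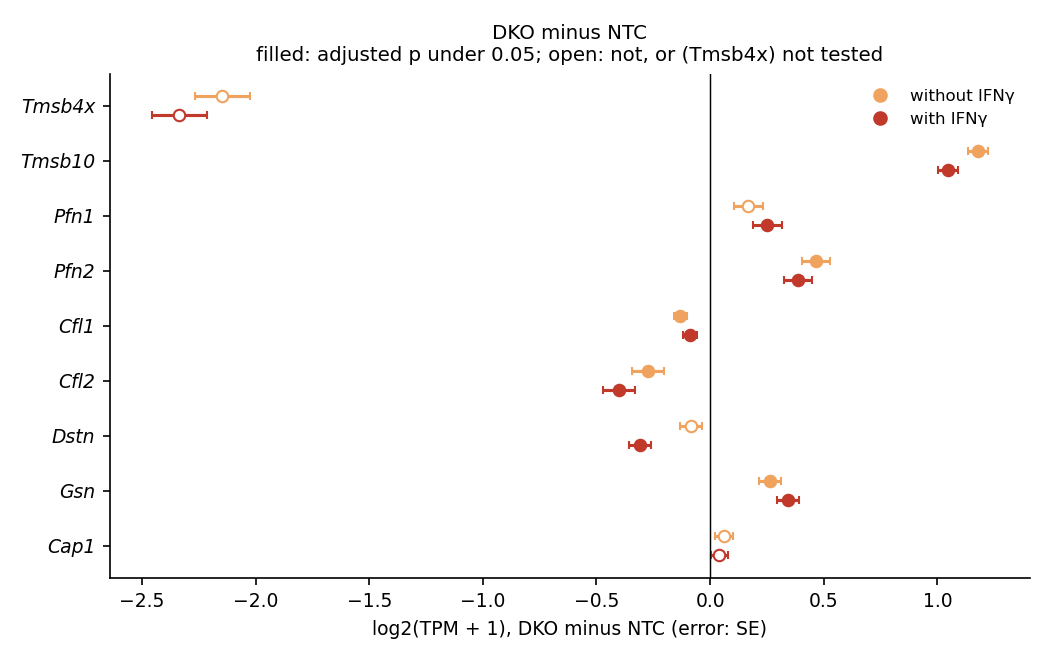
Fitted difference of each member, DKO minus NTC, in log2(TPM + 1) with its SE, without and with IFNγ, from limma over 12 libraries. Filled points passed an adjusted p of 0.05. *Tmsb4x* (−2.15 and −2.34, not tested) and *Tmsb10* (1.18 and 1.05) lie at opposite ends, and the other members lie between −0.40 and 0.47.

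Both profilins were higher in DKO cells, *Pfn2* in both conditions and *Pfn1* past the threshold with IFNγ. *Pfn1*, the main profilin of most cells, stood at 932, 1114 and 1054 TPM in untreated NTC and at 1221, 1109 and 1148 TPM in the untreated DKO group. These groups overlapped, and the difference of 0.17 missed the threshold (SE 0.0636, adjusted p = 0.0528). It passed without untreated NTC replicate 2 (adjusted p = 0.0190), without treated DKO replicate 2 (0.0464) or 3 (0.0336), under each rescaling, and after the GC content and length correction without (0.0143) and with the replicate block (0.0243), in all under 8 of 21 alternatives. With IFNγ, *Pfn1* stood at 983, 942 and 973 TPM in NTC and at 1183, 1209 and 1065 TPM in DKO libraries. These did not overlap, and *Pfn1* was higher by 0.25 (adjusted p = 0.00617). Of the 21 alternatives, the GC content and length correction with the replicate block lost that call (adjusted p = 0.0687).

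*Pfn2*, the profilin best known from neurons, was much less abundant than *Pfn1*. NTC libraries held 28.0, 30.6 and 30.1 TPM untreated and 31.8, 32.6 and 31.2 TPM with IFNγ. DKO libraries held 39.0, 45.1 and 39.8 TPM untreated and 40.3, 40.9 and 44.9 TPM with IFNγ. All DKO libraries were above all NTC libraries. The difference was 0.47 without (SE 0.0623, adjusted p = 7.64e-05) and 0.39 with IFNγ (adjusted p = 0.000272). The summed profilin level was 1063 ± 93.8 TPM in untreated NTC and 1200.4 ± 54.0 TPM in untreated DKO cells (SD, n = 3), and *Pfn2* supplied 2.79% and 3.45% of it.

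Of the cofilin family, *Cfl2* was lower in DKO cells in both conditions under every alternative, while *Cfl1* lost its call under some alternatives in each condition and *Dstn* passed the threshold with IFNγ. *Cfl1*, the cofilin of non-muscle cells, was the most abundant member in NTC cells, with 1549, 1576 and 1586 TPM untreated and 1489, 1499 and 1537 TPM with IFNγ. DKO libraries held 1442, 1419 and 1443 TPM untreated and 1426, 1422 and 1405 TPM with IFNγ. All DKO libraries were below all NTC libraries, but the change was small, −0.13 without (SE 0.0295, adjusted p = 0.00365) and −0.09 with IFNγ (adjusted p = 0.0260). Both calls were lost after scaling to the same total, at −0.08 (adjusted p = 0.0555) and −0.0022 (adjusted p = 0.964). The call with IFNγ was also lost without treated NTC replicate 2 (adjusted p = 0.0521) or 3 (0.0966) and without treated DKO replicate 1 (0.0555), after median-ratio scaling (0.0583) and when only the compared libraries were fitted (0.114), so that it held under 14 of 21 alternatives. *Cfl1* shares 468 exonic bases with *Snx32* on the opposite strand, which unstranded libraries cannot separate, and *Snx32* was listed at a mean of 6.40 TPM. Of the 50-base stretches of *Cfl1*, 20.7% occur in other annotated genes. Most lie in *Snx32* (14.6%) and in the processed pseudogene *Gm6180* (7.32%), for which no value was listed.

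*Cfl2*, the cofilin best known from muscle, stood at 133, 129 and 133 TPM in untreated NTC and at 150.1, 162 and 157 TPM in the treated NTC group. In DKO libraries it stood at 107, 112 and 108 TPM untreated and at 116, 105 and 136 TPM with IFNγ. Untreated DKO libraries were below both NTC groups, and treated DKO replicate 3 was the highest DKO library. The difference was −0.27 without (SE 0.0704, adjusted p = 0.00811) and −0.40 with IFNγ (adjusted p = 0.000551).

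*Dstn*, which encodes destrin, stood at 113, 108 and 115 TPM in untreated NTC and at 107, 107 and 102 TPM in the untreated DKO group. These groups lay side by side without overlap, and the difference of −0.09 did not pass (adjusted p = 0.181). With IFNγ, 122, 133 and 122 TPM in NTC stood against 103, 96.4 and 105 TPM in DKO libraries, a difference of −0.31 (SE 0.0472, adjusted p = 0.000187). The sum of the 3 genes was 1814 ± 19.7 TPM in untreated NTC and 1649 ± 10.2 TPM in untreated DKO cells, and 1790.2 ± 27.6 and 1638 ± 12.6 TPM with IFNγ (SD, n = 3).

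*Gsn*, which encodes the calcium-activated severing and capping protein gelsolin, was higher in DKO cells. NTC libraries held 48.9, 52.7 and 54.6 TPM untreated and 50.2, 48.9 and 48.5 TPM with IFNγ. DKO libraries held 61.9, 61.2 and 64.7 TPM untreated and 62.4, 64.9 and 60.9 TPM with IFNγ, all above the NTC libraries. The difference was 0.26 without (SE 0.0485, adjusted p = 0.000957) and 0.34 with IFNγ (adjusted p = 9.71e-05).

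*Cap1* differed least between the genotypes. It stood at 97.4, 96.8 and 96.7 TPM in untreated NTC and at 100.8, 103 and 99.5 TPM in the untreated DKO group. With IFNγ, NTC libraries held 105, 109 and 109.8 TPM and DKO libraries 112, 107 and 115 TPM. The untreated groups did not overlap and the treated groups did. The differences were 0.06 (95% interval −0.02 to 0.15, adjusted p = 0.246) and 0.04 (−0.04 to 0.13, adjusted p = 0.424). After scaling to the same total they passed, at 0.11 (adjusted p = 0.0296) and 0.13 (0.0132). *Cap1* shares 129 exonic bases with *Ppt1* on the opposite strand, listed at a mean of 38.4 TPM.

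**Figure D3:**
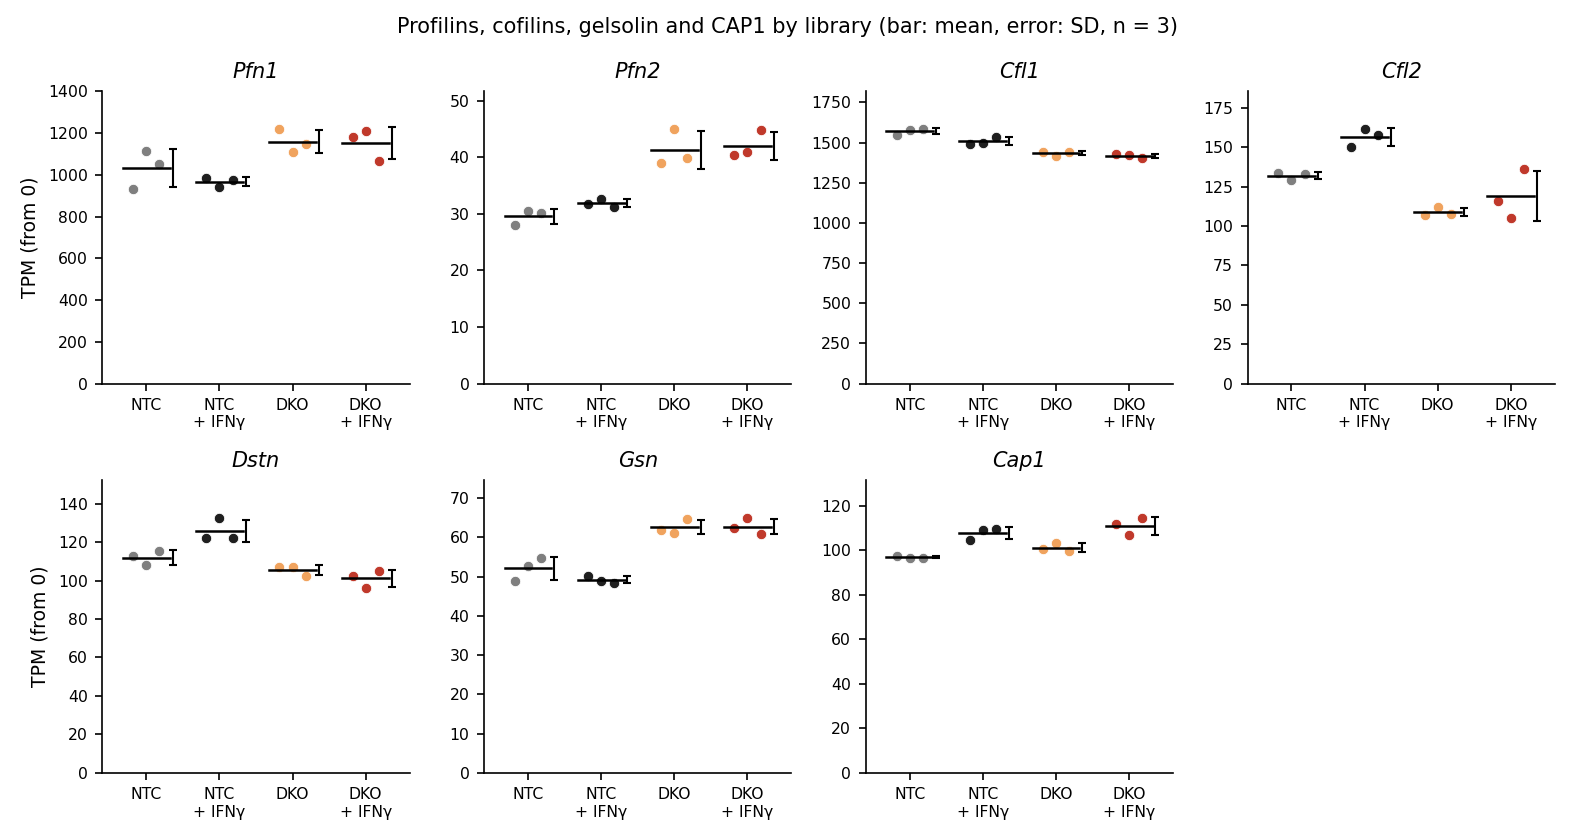
TPM (axes from 0) of the 7 members other than the thymosins in each library, with the mean (bar) and SD (n = 3) of each group. *Pfn2* and *Gsn* lie higher in all DKO libraries than in any NTC library, *Cfl1* lies lower, and the change of *Cfl1* is small beside its level of 1405 to 1586 TPM.

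In NTC cells, IFNγ raised *Tmsb10*, *Cfl2*, *Dstn* and *Cap1*, 4 of 9 members and none in the other direction. The background was 12.1% of all tested genes (7.31% higher, 4.78% lower). *Tmsb10* was higher by 0.26 (SE 0.0447, adjusted p = 0.00445), *Cfl2* by 0.25 (adjusted p = 0.0411), *Dstn* by 0.17 (adjusted p = 0.0406) and *Cap1* by 0.15 (adjusted p = 0.0268). For each of these 4 genes the treated NTC libraries lay above all untreated ones. This does not set them apart, because 2 members that limma did not call also separated fully. They were *Pfn2*, with treated libraries above (adjusted p = 0.268), and *Cfl1*, with treated libraries below (adjusted p = 0.189). The share of all tested genes that separated is not given here. The median over the 9 members was 0.15, against 0.02 over all tested genes. Of these calls, that of *Tmsb10* held under all 21 alternatives, with a highest adjusted p of 0.0298. The call held under 13 of 21 for *Cap1*, 6 for *Dstn* and 5 for *Cfl2*. The count fell to 1 without untreated NTC replicate 2 or 3 or treated NTC replicate 2 or 3. It fell to 2 without untreated NTC replicate 1, untreated DKO replicate 2 or 3, or treated DKO replicate 1. Scaled to the same total, 45.1% of all calls in this comparison were higher, in place of 60.5%.

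*Tmsb4x* was at 0.25 in the IFNγ response of NTC cells (SE 0.121, 95% interval −0.01 to 0.51, adjusted p = 0.176), close to the value of *Tmsb10* but with a wider spread. The remaining members were at −0.09 (*Pfn1*), 0.10 (*Pfn2*), −0.06 (*Cfl1*) and −0.08 (*Gsn*), none past the threshold.

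In DKO cells, limma called 0 of 9 members under IFNγ, against 0.78% of all tested genes, and 2 of 9 had an unadjusted p under 0.05. These were *Cap1*, at 0.13 (SE 0.0391, adjusted p = 0.222), and *Tmsb10*, also at 0.13 (adjusted p = 0.336). For both, all treated libraries lay above all untreated ones. *Tmsb4x* was at 0.06 (95% interval −0.20 to 0.32).

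The difference between the responses itself was tested. Limma called 0 of 9 members (0.0343% of all tested genes passed), and 1 of 9, *Dstn*, had an unadjusted p under 0.05. Its response was lower in DKO than in NTC cells by 0.22 on the log2 scale (SE 0.0668, adjusted p = 0.364). The difference was −0.13 for *Tmsb10* (95% interval −0.27 to 0.00, adjusted p = 0.437) and −0.19 for *Tmsb4x* (−0.56 to 0.18, adjusted p = 0.662). The intervals of both reach well past 0 in the direction of a smaller response in DKO cells, so the data do not show that the genotypes respond alike.

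**Figure D4:**
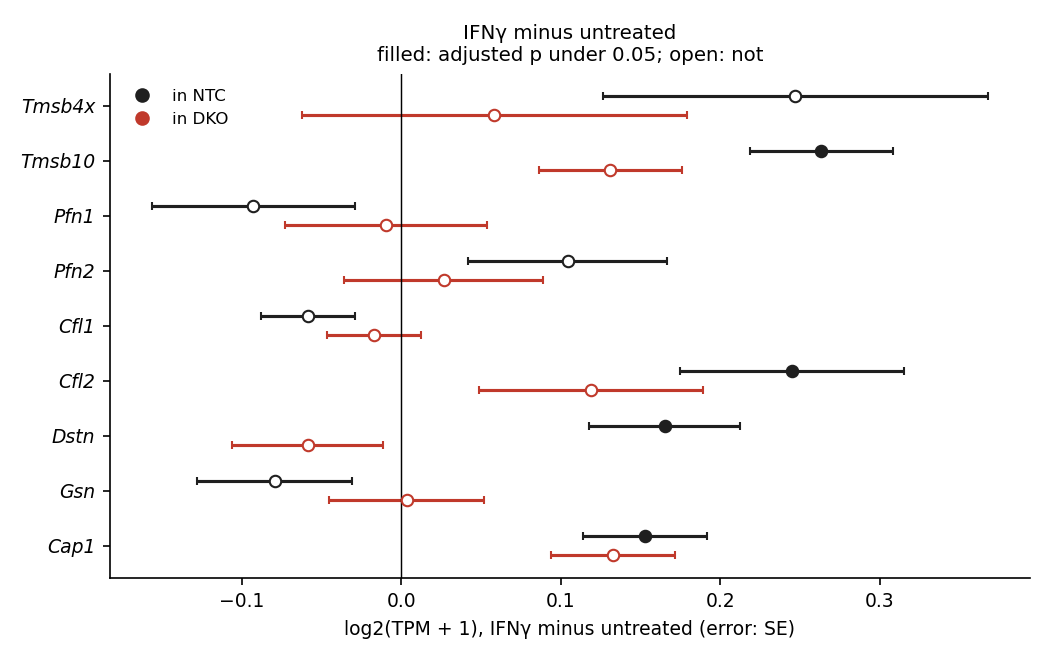
Fitted IFNγ response of each member, treated minus untreated, in log2(TPM + 1) with its SE, in NTC and in DKO cells, from limma over 12 libraries. Filled points passed an adjusted p of 0.05. *Tmsb10*, *Cfl2*, *Dstn* and *Cap1* passed in NTC cells (0.15 to 0.26), and no member passed in DKO cells.

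Actin itself differed by isoform. *Actg1* (γ-actin) stood at 1817, 1803 and 1757 TPM in untreated NTC and at 1285, 1218 and 1256 TPM in the untreated DKO group, with no overlap. It was lower in DKO by 0.52 without (SE 0.0339, adjusted p = 1.59e-07) and by 0.40 with IFNγ (adjusted p = 1.47e-06). *Actb* (β-actin) was at 0.04 without IFNγ (adjusted p = 0.599) and higher by 0.18 with it (adjusted p = 0.0187). The latter call was lost without treated NTC replicate 2 or 3 or treated DKO replicate 2 (highest adjusted p = 0.0808). The share of *Actg1* in both actins was 56.3% ± 1.62 in untreated NTC and 46.6% ± 0.526 in untreated DKO cells, and 58.6% ± 0.710 and 48.6% ± 1.24 with IFNγ (SD, n = 3). Of the other 4 actins, *Acta2* and *Actc1* were at 0 in all libraries, and *Acta1* and *Actg2* were below the filter. Of 6 other thymosin and profilin genes, only *Pfn4* passed the filter, at a mean of 2.02 TPM in untreated NTC and 1.18 TPM in untreated DKO cells, where it was lower by 0.48 (adjusted p = 0.0342, but up to 0.151 without any 1 of the untreated NTC libraries or without untreated DKO replicate 3).

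The 8 lists of other actin genes held 74 different tested genes, of which 32 (43.2%) passed in DKO against NTC without IFNγ and 41 (55.4%) with it, beside 36.4% and 43.3% of all tested genes. The lists were chosen with earlier results known, and the counts below are descriptions. Of 7 tested kinases and phosphatases of cofilin, 2 were higher and 1 lower in DKO cells in each condition, a share near that of all tested genes. *Limk1*, a kinase that inactivates cofilin, stood at 7.04, 7.44 and 7.48 TPM in untreated NTC and at 11.1, 9.30 and 9.55 TPM in the untreated DKO group, and was higher by 0.40 without (adjusted p = 0.000884) and by 0.39 with IFNγ (adjusted p = 0.000865). *Ssh3*, of the slingshot phosphatases that reactivate cofilin, was lower by 0.51 and by 0.45, at a level near 1 to 2 TPM. *Ssh1* was higher by 0.25 without IFNγ (adjusted p = 0.0473, lost under 12 of 21 alternatives, highest 0.19). *Tesk1*, another cofilin kinase, was higher by 0.27 with IFNγ (adjusted p = 0.0184), a call lost without treated NTC replicate 2 or 3 or treated DKO replicate 2 and after the GC content and length correction (0.0240, adjusted p up to 0.752).

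Of 9 other monomer-binding and disassembly factors, 1 was higher and 1 lower without IFNγ, and 1 higher and 3 lower with it (2 and 2 after scaling to the same total). *Twf2*, a twinfilin that binds monomers, was higher by 0.39 and 0.53 in DKO cells (adjusted p = 0.00588 and 0.000605). *Wdr1*, the cofactor of cofilin in severing, was lower by 0.20 and 0.27 (adjusted p = 0.00449 and 0.000497). *Gmfb*, which debranches filaments, was lower by 0.26 with IFNγ.

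Of 11 tested genes of the gelsolin family and of cappers, 3 were higher and 0 lower without IFNγ, and 3 higher and 2 lower with it. After scaling to the same total, the latter split was 5 to 0. *Capg*, a gelsolin relative that caps filament ends, stood at 36.3, 33.2 and 35.4 TPM in untreated NTC and at 72.7, 67.9 and 67.8 TPM in the untreated DKO group. It was higher by 0.97 (SE 0.0563, adjusted p = 5.02e-08) and, with IFNγ, by 1.08, so that both *Gsn* and *Capg* were higher in all DKO than in all NTC libraries. *Svil* (supervillin) was higher by 0.51 and 0.50. The capping protein subunits *Capza1* and *Capza2* were lower with IFNγ, by 0.28 and 0.22, but not after scaling to the same total, nor without treated NTC replicate 2 or treated DKO replicate 2 (highest adjusted p = 0.0813 and 0.506 over all alternatives).

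Of 9 tested Arp2/3 complex genes, which encode the nucleator of branched filaments, 3 were higher and 1 lower without IFNγ, and 2 higher and 4 lower with it (4 to 1 after scaling to the same total). *Arpc4* was higher by 0.32 and 0.17, *Arpc1a* by 0.19 and 0.24. *Arpc5l* was lower by 0.41 and 0.47, and *Arpc5* by 0.21 with IFNγ. With IFNγ, the call of *Arpc4* was lost without treated NTC replicate 1 or 3 or treated DKO replicate 1 (highest adjusted p = 0.0605), and that of *Arpc5* without treated NTC replicate 2 and after scaling to the same total or correcting for GC content and length (highest 0.108). Of 18 tested nucleators and their activators, 4 were higher and 5 lower without IFNγ (6 and 2 after scaling to the same total) and 4 higher and 6 lower with it. The formin gene *Fmn1* stood at 37.4, 36.5 and 35.8 TPM in untreated NTC and at 20.2, 21.6 and 22.2 TPM in the untreated DKO group, and was lower by 0.75 and 0.83 (adjusted p = 5.44e-07 and 2.34e-07). *Cyfip2*, a subunit of the WAVE complex, was lower by 0.47 and 0.46. The formin genes *Inf2* (0.53 and 0.63), *Fmnl3* (0.43 and 0.41) and *Fhod1* (0.37 and 0.75) were higher in both.

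Of 19 tested MRTF-SRF factors and targets, a list that also holds both actins, 3 were higher and 7 lower without IFNγ, and 8 higher and 5 lower with it. Scaled to the same total, the splits were 4 to 5 and 9 to 3. *Tagln2*, which encodes the actin-bundling transgelin-2, was listed at 0 throughout the untreated NTC group and at 3.42, 2.91 and 3.44 TPM in the untreated DKO group. With IFNγ it was at 0, 0.517 and 0 TPM in NTC and at 2.83, 2.63 and 3.02 TPM in DKO libraries. *Tagln* was higher by 1.03 with IFNγ, at 1.72, 1.5 and 2.24 TPM in DKO libraries, and *Myl9*, a myosin light chain gene, by 0.53 and 0.55 at a level near 1 to 2 TPM. *Tagln2* and *Tagln* reached 1 TPM in no NTC library (highest 0.517 and 0.765 TPM), so they passed the filter only through DKO libraries. *Tpm2*, also called higher with IFNγ, had a highest NTC value of 1.08 TPM. Such genes could hardly be called lower in DKO cells, so nothing is read from the splits that count them. *Srf* stood at 23.7, 25.1 and 25.1 TPM in untreated NTC and at 19.1, 17.4 and 17.0 TPM in the untreated DKO group and was lower by 0.45 (adjusted p = 0.000474). With IFNγ it was at −0.14 (adjusted p = 0.16). *Tpm1*, a tropomyosin gene, was lower by 0.32 and 0.30.

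**Figure D5:**
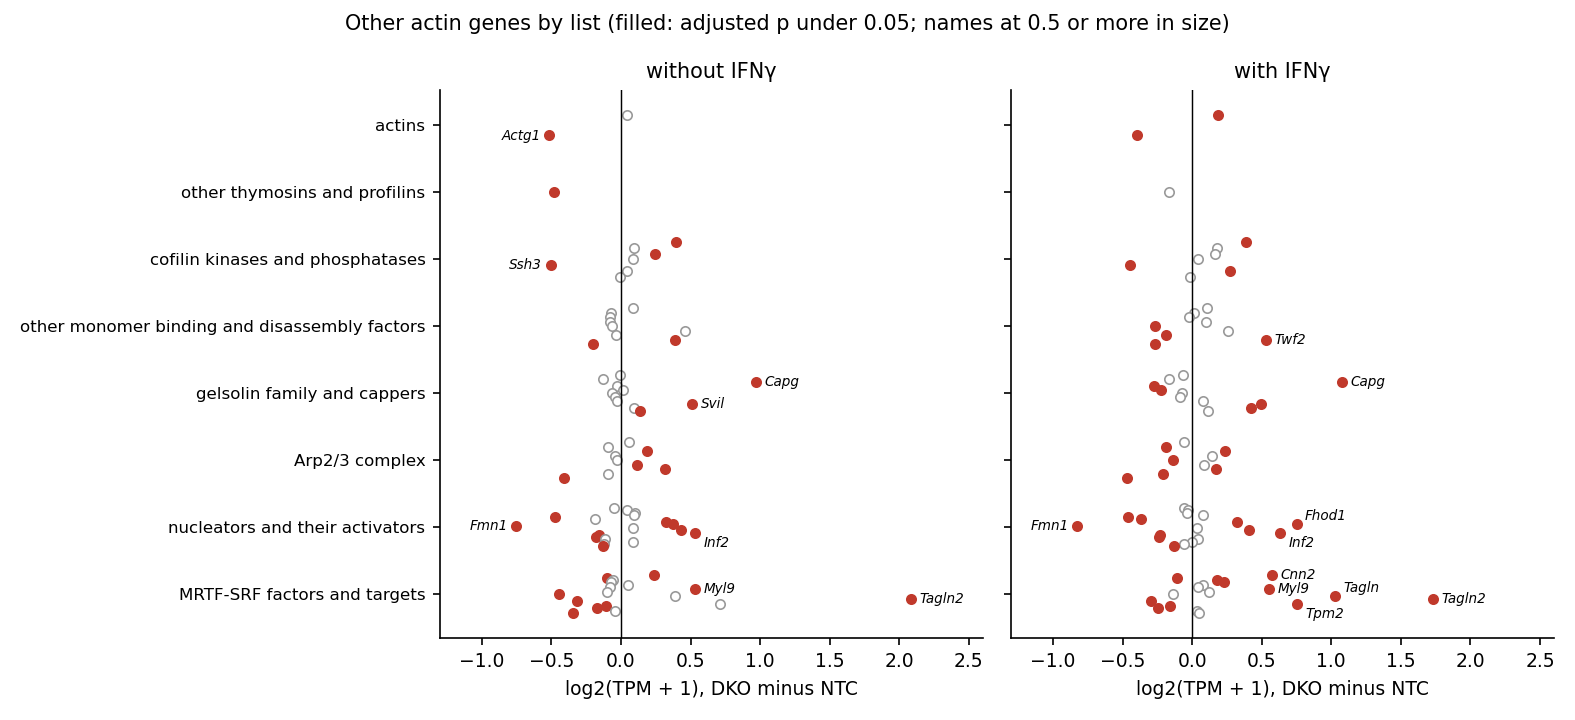
Fitted DKO minus NTC difference in log2(TPM + 1) of each tested gene of 8 lists of other actin genes, without IFNγ (left) and with it (right), from limma. Filled points passed an adjusted p of 0.05, and those at 0.5 or more in size carry their name. Each list with more than 2 tested genes holds filled points on both sides of 0 in at least 1 condition.

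Under IFNγ in NTC cells, 12 of the 74 genes of these lists (16.2%) passed the threshold, a share near the 12.1% of all tested genes. In DKO cells, limma called 0 of 74 (0.78% of all tested genes), and 6 had an unadjusted p under 0.05. *Twf1* (0.24), *Capza2* (0.26), *Actr2* (0.17), *Spire1* (0.16) and *Nckap1* (0.18) were higher. *Capg* (−0.20), *Fhod1* (−0.37), *Srf* (−0.33), *Mkl1* (−0.28), *Zyx* (−0.38), *Pdlim7* (−0.35) and *Msn* (−0.14) were lower. *Srf*, *Mkl1* (MRTF-A), *Zyx* (zyxin), *Pdlim7* and *Msn* (moesin) made up the 5 of 19 MRTF-SRF genes called lower, and none of that list was called higher. Of all tested genes, 4.78% were called lower. After the GC content and length correction, 1 gene of that list was called lower. Each of the 12 calls was lost under 5 to 17 of the 21 alternatives, and the GC content and length correction took *Srf* to −0.02. Their difference between the genotypes did not pass (for *Zyx* 0.39, adjusted p = 0.364, and for *Srf* 0.31, adjusted p = 0.385).

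The 5 tested genes whose pattern over the 12 libraries was most like that of *Tmsb4x*, by root mean square distance of centred log2(TPM + 1) values, were *Cited1* (0.168), *Nupr1* (0.275), *Fez1* (0.286), *Kit* (0.307) and *Hs3st1* (0.313). *Cited1*, a transcriptional coactivator, held 56.4, 59.9 and 59.0 TPM in untreated NTC, 73.5, 79.8 and 84.3 TPM in treated NTC, 13.0, 13.5 and 13.4 TPM in untreated DKO and 13.8, 15.7 and 16.5 TPM in treated DKO libraries. *Kit*, the receptor of stem cell factor, had means of 3.59 and 3.87 TPM in the NTC groups and 0.486 and 0.376 TPM in the DKO groups. As these genes were picked for their likeness to *Tmsb4x*, their genotype differences carry no test here.

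The melanocyte markers moved with genotype, and their part in the results above was not tested. Of 7 markers (*Pmel*, *Dct*, *Tyr*, *Tyrp1*, *Mlana*, *Mitf*, *Sox10*), 7 were lower in DKO without IFNγ and 6 with it, and the median of the list was −0.53 and −0.57. Of the markers of other cell types, *Cd68* and *Col1a1* passed the filter and were higher in DKO cells in both conditions. Under IFNγ, *Tyr*, *Tyrp1*, *Mlana* and *Mitf* were called higher and *Sox10* lower in NTC cells, and *Pmel* and *Cd68* higher in DKO cells. The limma calls of *Mitf* (0.27, adjusted p = 0.00579) and *Cd68* (0.83, adjusted p = 0.00551) held under all 21 alternatives. *Cd68* had DKO means of 2.68 TPM untreated and 5.57 TPM treated. The other calls were lost under 7 to 14 alternatives.

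MBNL proteins bind RNA at short motifs with a GC core flanked by pyrimidines. Matches of GC preceded by C or T and followed by C or T were counted on the transcript strand, and overlapping matches were allowed. The part counted was the annotated 3′ non-coding part of the longest coding transcript of each gene. Other transcripts were not counted. *Tmsb4x* held 6 matches in 209 bases, 28.7 per kb, at or above 97.5% of 19853 genes, whose median was 11.9 per kb. The transcript was picked by its total length and not by the length of its 3′ part. The reading frame of *Tmsb4x* ends at chrX:167207504 and the gene at chrX:167207093, farther apart than the 209 bases counted. The 6 matches may thus cover only a part of the annotated 3′ end. The rank could differ for a longer 3′ part, which was not counted. *Tmsb10* held 4 in 265 bases, 15.1 per kb, at or above 71.8% of genes. The 7 other members ranged from 7.30 per kb (*Pfn1*) to 12.9 per kb (*Cfl1*). A match of these letters is a description of the sequence, and no binding was measured.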

How the data were processed

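Poly(A)-selected, unstranded RNA-seq libraries of 12 samples were prepared by the authors, who estimated expression with RSEM 1.2.4 calling Bowtie and passed unaligned reads to TopHat (submitters' processing notes and methods). The authors deposited TPM (under a name that says counts), and any scaling between libraries is not stated. TPM keep no read depth, so precision was taken from replicates. Listed genes summed to 805782 to 874612 TPM per library.

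Genes with at least 1 TPM in 3 or more libraries entered a limma 3.58.1 fit of log2(TPM + 1) in R 4.3.3, with 1 mean per group and a variance prior following the mean. Benjamini-Hochberg adjusted p-values ran over all tested genes in each of 5 comparisons, with a threshold of 0.05. The fit was also run on simulated data in which few genes changed and all libraries kept a common scale. That run therefore says nothing about the scaling between libraries or about widespread differences between the genotypes. The members and lists were chosen with earlier results of these data known. Named are all members, both actins, up to 2 list genes per direction with the largest genotype difference among those past the threshold, every list gene past it under IFNγ, and the 5 genes nearest to *Tmsb4x*. Positions, reading frames, motifs and shared stretches came from GENCODE M21 (GRCm38). The submitters' notes name mm10, and the authors' annotation was not used here.

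Alternatives were a pseudocount of 0.1, no filter, a replicate block, each library left out, only the compared libraries, 3 rescalings (same total, same total without *Tmsb4x*, median ratio) and correction for GC content and length (mgcv 1.9.3, 11563 genes), also with the block. Pairing by replicate number was checked. Splicing and protein data were not analysed here. Python 3.11.15, numpy 2.4.6, pandas 2.3.3 and matplotlib 3.10.9 made the tables and figures.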

Additional observations from a re-analysis of the deposited data

How the results depend on the processing

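Of the 5 counts of members called, 4 stayed within 1.5 times their value under every alternative run. The count for IFNγ in NTC cells (4) did not: it was 2 with no filter, 2 with the replicate block, 2 after median-ratio scaling, 2 after correcting for GC content and length, 1 with that correction and the block, and 1 after scaling to the same total with or without *Tmsb4x*. It was 1 to 4 with each library left out. The cause was not tested. Deviations of the 18 same-numbered pairs correlated at −0.179 to 0.182 (median −0.017, 4 of them over 0.1). The 36 pairs with other numbers lay at −0.219 to 0.213 (median 0.019, 9 over 0.1). These values cannot tell whether same-numbered libraries were prepared together. Added to the main fit, the block changed no other count. Added to the GC content and length correction, it took the members called higher in DKO with IFNγ from 4 to 3, losing *Pfn1*. The calls of *Tmsb10*, *Pfn2*, *Cfl2* and *Gsn* between the genotypes held under all 21 alternatives. A pseudocount of 0.1 took *Tmsb4x* to −2.33 without and −2.52 with IFNγ.

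Among the members, the values whose sign turned had not passed the threshold. Among the other listed genes called under IFNγ in NTC, *Sox10* (−0.25) turned under 2 alternatives, to at most 0.0709. After the GC content and length correction, blocked or not, *Pfn1* was at 0.0633 and *Gsn* at 0.0286 under IFNγ in NTC, *Pfn1* at 0.0296 in DKO, and the differences in response at −0.0337 (*Pfn1*), 0.0468 (*Cfl2*) and −0.0036 (*Gsn*). *Gsn* under IFNγ in DKO was at −0.0066 after median-ratio scaling, and the difference in response of *Cap1* at 0.0159 after scaling to the same total. With each library left out, the IFNγ values in DKO ranged from −0.0375 to 0.144 (*Tmsb4x*), −0.0455 to 0.0464 (*Pfn1*), −0.0198 to 0.0896 (*Pfn2*) and −0.0211 to 0.0273 (*Gsn*), and the difference for *Cap1* from −0.0425 to 0.0081. Fitting only the compared libraries gives no separate value for the difference in response, which needs all of them. TPM keep no counts, so depth limits could not be computed.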
